A study of Drosophila melanogaster with 36 samples.

Results

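Transcript ratios of the nuclear genes for oxidative phosphorylation were compared between 3 strains of adult Drosophila melanogaster. The genes were taken by symbol: those starting with ND- for complex I, Sdh for complex II, UQCR- for complex III, COX and a digit for complex IV and ATPsyn for complex V. This gave 65 of the 10797 named genes on the array, 30 in complex I, 7 in complex II, 2 in complex III, 12 in complex IV and 14 in complex V. The rule reads symbols alone, but it was drawn up with earlier results of these data known. The genes lay on all major chromosome arms, with 14 on 2L, 10 on 2R, 13 on 3L, 17 on 3R and 11 on the X.

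The strain Antp73b carries an allele of the Hox gene Antennapedia, and ap56f carries an allele of the wing selector gene apterous. OregonR is a wild-type strain and the control of both. The strains may also differ in genetic background, and an effect of an allele cannot be told apart from such a difference here. Whole adult flies of every strain were bought from a commercial supplier. No source used here gives their sex, their age in days or how many RNA extractions were made. On each of 36 arrays one strain was labelled with Cy3 (channel 1) and one with Cy5 (channel 2). Antp73b and OregonR were hybridised together on 8 arrays, 4 in each colour orientation, as were ap56f with OregonR and Antp73b with ap56f. The other 12 arrays, 4 for each strain, carried the same strain in both channels.

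Oxidative phosphorylation takes place in the inner mitochondrial membrane. Complexes I and II pass electrons from NADH and succinate to ubiquinone, complex III passes them to cytochrome c and complex IV to oxygen. Complexes I, III and IV pump protons, and complex V, the ATP synthase, lets the protons flow back and makes ATP. Most subunits are encoded in the nucleus, and flight muscle is among the insect tissues richest in them. In Drosophila many of these genes have a duplicate, named with an added L for "like", and many such duplicates are expressed mainly in testis.

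Every array gave 1 signed fold ratio per spot, with spots in duplicate. Between 26362 and 30716 of the 31464 spots per array had a value, and duplicate spots correlated across the array with r from 0.19 to 0.834 (median 0.579). Values are given on the log2 scale, centred on the median of the array and coded as channel 1 over channel 2. No source used here says which of the channels a positive ratio stands for. Each difference therefore has a side and no direction. If the deposited ratio has channel 1 on top, the plus side stands for higher transcript abundance in the first-named strain, and if it has channel 2 on top, for lower. The number of arrays limits the precision, and the spread behind the p-values is that between arrays, which may be technical alone. Arrays of a group carried consecutive numbers, so strain pair and orientation cannot be told apart from any effect of such a run.

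Most genes of oxidative phosphorylation showed no strain difference past the threshold, and those that did differed little, with 1 exception. ND-B8, an accessory subunit of complex I, stood at -0.71 in Antp73b against OregonR and at -0.74 in ap56f against OregonR. The other differences past the threshold were between 0.12 and 0.31 in size, or 1.08-fold to 1.24-fold. They included the complex II membrane anchor SdhC and the complex I flavoprotein ND-51 on the plus side in Antp73b, and COX7A of complex IV and the ATP synthase coupling factor ATPsynCF6 on the minus side in Antp73b. Each difference other than those of ND-B8 fell short of the threshold in at least 1 other setting of the processing.

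The strain differences came from a linear model with a dye term, fitted with limma over all 36 arrays to 13296 features (10428 of them named genes). All 65 genes had enough values to be tested. A gene is called where its adjusted p, by the Benjamini-Hochberg method over all features, was below 0.05. In Antp73b against OregonR, 10 of the 65 genes were called, against 23.3% of all features. The plus side held 6 of them and the minus side 4, where 11.7% and 11.6% of all features were called. The share among the genes was 15.4%.

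For ap56f against OregonR, 5 of 65 genes (7.69%) were called, against 15.9% of all features. The plus side held 3 of them, against 8.45% of all features, and the minus side 2, against 7.48%. Between the mutants, Antp73b against ap56f, 6 of 65 genes (9.23%) were called, against 15.7% of all features. These were 3 on the plus side, against 8.31% of all features, and 3 on the minus side, against 7.38%. The comparisons share arrays and strains, so their counts are not independent. In all 3 the share among the genes of oxidative phosphorylation was below that among all features, a difference that was not tested.

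The size of the differences was also near or below that of all features. The median size was 0.067 among the 65 genes against 0.076 among all features in Antp73b against OregonR. It was 0.063 against 0.071 in ap56f against OregonR, and 0.050 against 0.068 in Antp73b against ap56f. The genes were measured about as precisely as the rest, with a median standard error (SE) of 0.057 against 0.056 for all features. Of the 65 genes, 51 were called in no comparison, 7 in 1, 7 in 2 and 0 in all 3. The matching counts over all features are not given here, so these counts only describe the list. In the 174 pairs of gene and comparison that were not called, the 95% interval of the difference lay within ±0.5 every time, and its widest bound was 0.36, or 1.28-fold. Such a bound limits the size of a difference, and a missed threshold does not show that the strains were alike.

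**Figure D1:**
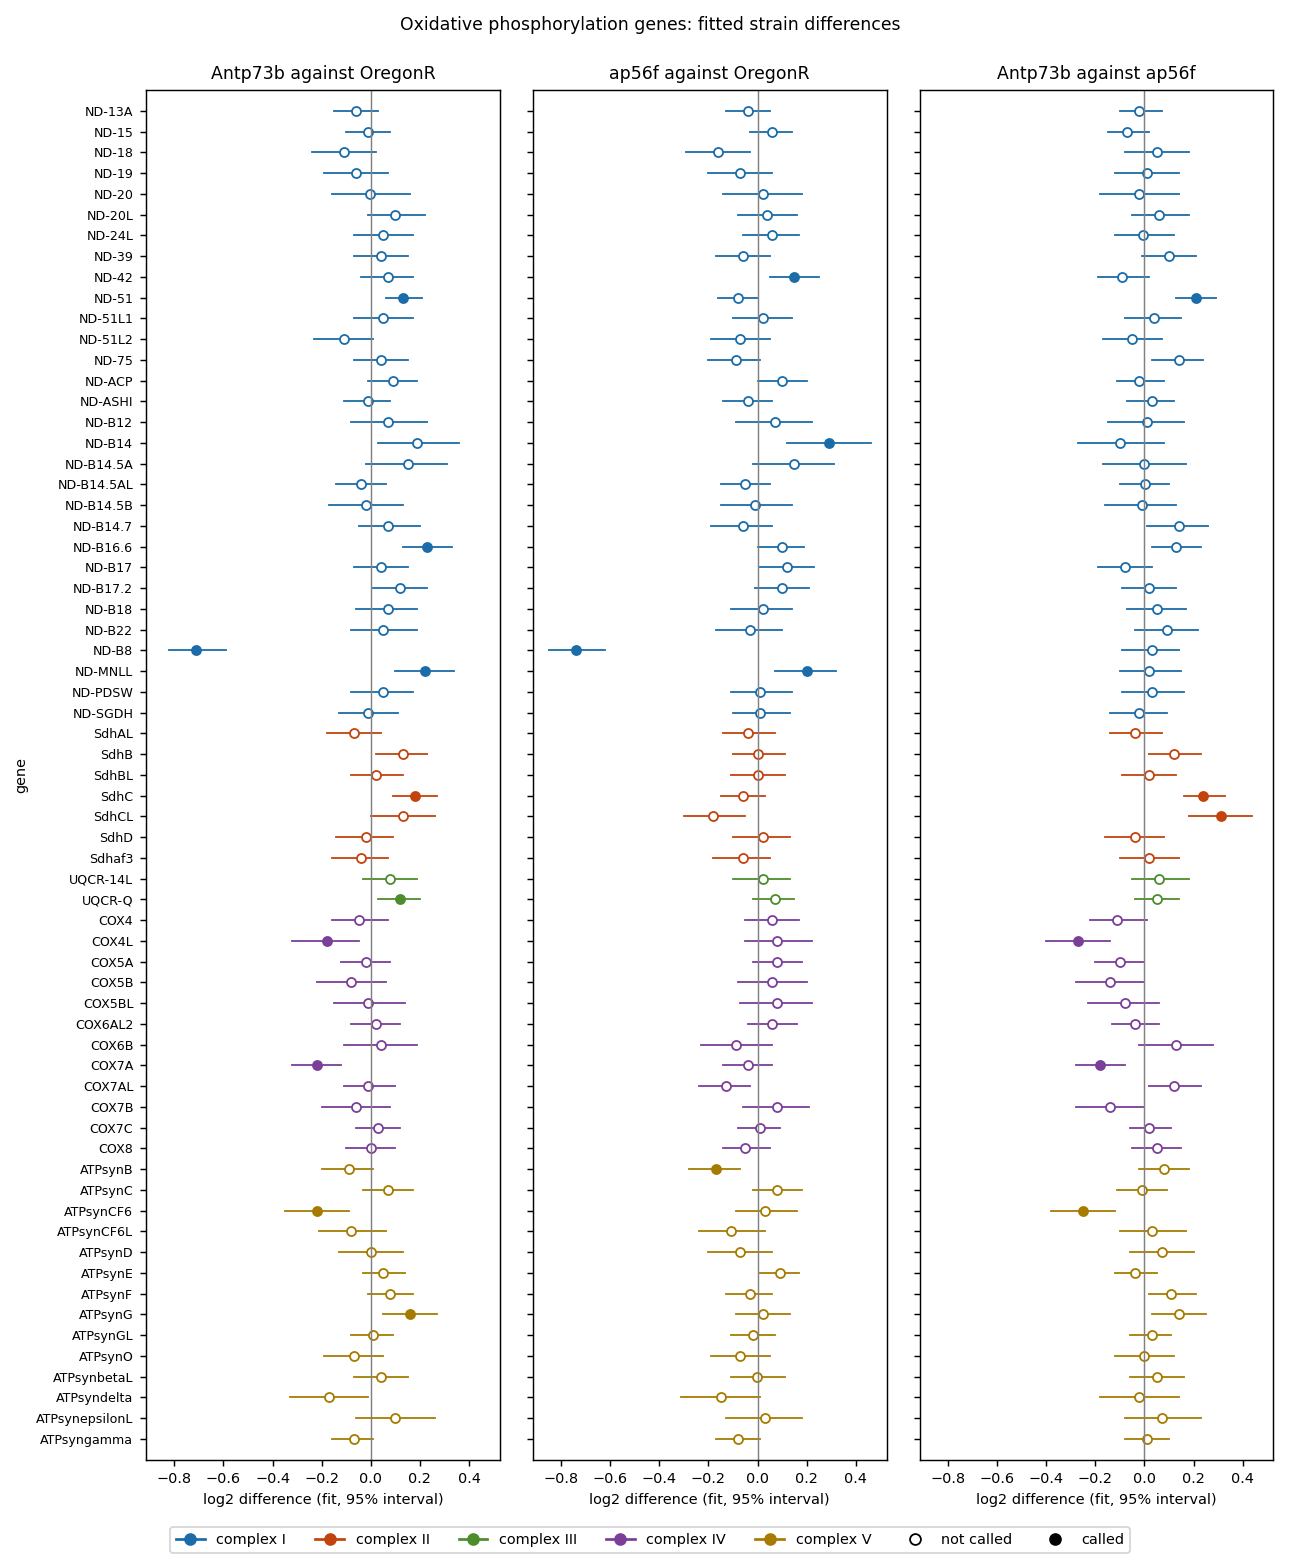
Fitted log2 difference (x axis) of each of the 65 genes (y axis) in the 3 strain comparisons, with 95% intervals as lines, colours for the complexes and filled points for genes called. ND-B8 stands alone at -0.71 and -0.74 in both comparisons with OregonR, and every other called gene lies between 0.12 and 0.31 in size.

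No complex was shifted as a whole by more than 0.1. In Antp73b against OregonR the median difference was 0.050 for complex I, 0.023 for complex II, 0.097 for the 2 genes of complex III, -0.013 for complex IV and 0.004 for complex V, against 0.002 for all features. The medians for ap56f against OregonR were 0.016, -0.036, 0.041, 0.060 and -0.027 for complexes I to V, against -0.002 for all features. In Antp73b against ap56f complex IV had the largest median, -0.092, with 8 of its 12 genes on the minus side, and the others were 0.014 for complex I, 0.022 for complex II, 0.057 for complex III and 0.029 for complex V. These medians describe the lists and were not tested. RNA came from whole flies, so fewer cells of a type and less RNA per cell cannot be told apart in any of these values.

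Complex I oxidises NADH through a flavin and a chain of iron-sulfur clusters, and its core is surrounded by many accessory subunits. Of its 30 genes, 3 were called on the plus side (ND-B16.6, ND-MNLL and ND-51) and 1 on the minus side (ND-B8) in Antp73b against OregonR, a share of 13.3% against 23.3% of all features. The ap56f strain against OregonR had 3 called on the plus side (ND-B14, ND-MNLL and ND-42), and again ND-B8 on the minus side, which is 13.3% against 15.9% of all features. Between the mutants ND-51 was the 1 gene called, on the plus side, or 3.33% against 15.7% of all features.

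ND-B8 (CG15434, chromosome arm 2L) is the orthologue of the mammalian accessory subunit NDUFA2. Its log2 ratio was -0.55, -0.49, -0.58 and -0.68 on the 4 arrays with Antp73b in channel 1 and OregonR in channel 2. With the colours exchanged it was 0.32, 0.68, 1.04 and 0.96. In the ap56f pair it was -0.77, -0.58, -0.61 and -0.91 with ap56f in channel 1, and 0.89, 0.56, 1.32 and 0.63 with ap56f in channel 2. Every array of either mutant with OregonR thus gave the same side, and no value of one orientation overlapped with those of the other.

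The fitted difference of ND-B8 was -0.71 in Antp73b against OregonR (SE 0.057, 95% interval -0.82 to -0.59, limma adjusted p = 3.2e-14), or 1.63-fold. For ap56f against OregonR it was -0.74 (95% interval -0.85 to -0.62, limma adjusted p = 1.9e-14), or 1.67-fold. By size it ranked 83 and 38 among the 10428 named genes tested in these comparisons. The mutants were hybridised to each other with ratios of 0.07, -0.07, 0.33 and 0.000 (Antp73b in channel 1) and 0.33, 0.13, -0.20 and 0.19 (ap56f in channel 1), and the fitted difference between them was 0.03 (95% interval -0.09 to 0.14, limma adjusted p = 0.79). On the 12 arrays of 1 strain ND-B8 lay between -0.26 and 0.32. Of the 16 ratios with OregonR, 1 equalled the upper end of that range and the others lay outside it.

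Genes beside ND-B8 on arm 2L were read after its values were seen. Its nearest tested neighbours, Secp43 and Gs1l, stood at -0.06 and 0.07 in Antp73b against OregonR and at -0.15 and 0.01 in ap56f against OregonR, and neither was called. CG15443, on the side of Gs1l, was called on the minus side in both (-0.23 and -0.21, limma adjusted p = 0.0041 and 0.013). On the other side morgue was called at -0.17 in Antp73b against OregonR (limma adjusted p = 0.015). The differences of these neighbours were all under 0.25 in size, far from that of ND-B8. Markers of ovary also stood on the minus side in both comparisons, and their values are given with the other lists. In Antp73b against ap56f 10 of 12 ovary markers were called on the minus side (median -0.337), against 7.38% of all features. ND-B8 stood at 0.03 there and was not called. The part of the ovary in the result for ND-B8 was not tested.

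**Figure D2:**
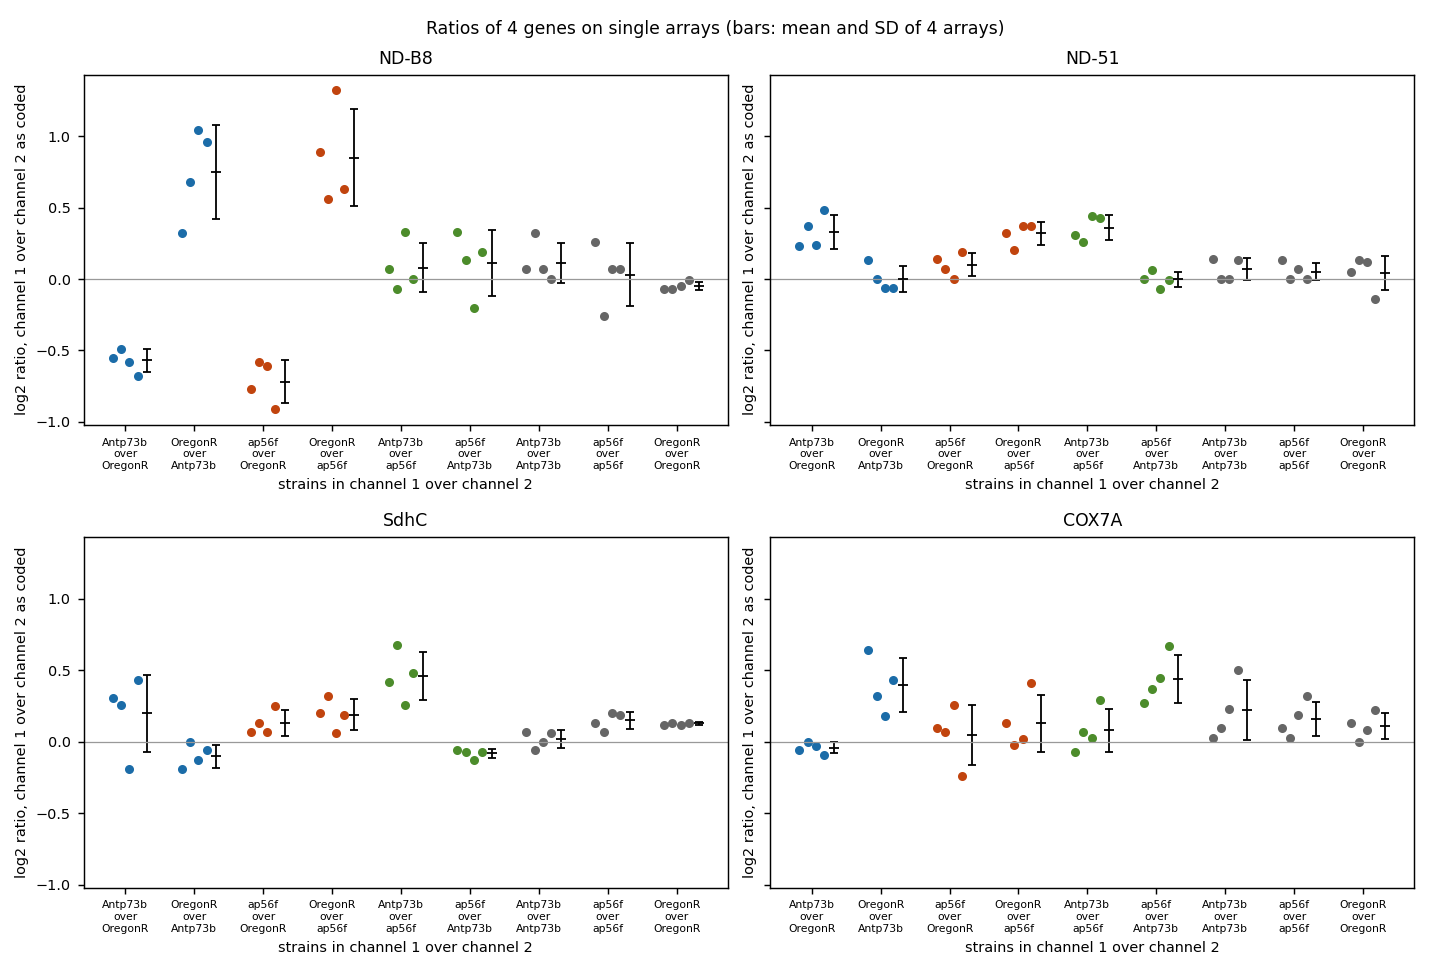
Log2 ratio (y axis, channel 1 over channel 2 as coded) of ND-B8, ND-51, SdhC and COX7A on single arrays, by the strains in the channels (x axis), with the mean and SD of the 4 arrays of each group as black bars. ND-B8 separates completely between orientations in both pairs with OregonR (-0.91 to -0.49 against 0.32 to 1.32), while the other 3 genes differ by much less.

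ND-51 encodes the flavoprotein that binds NADH, the orthologue of NDUFV1. On arrays of the 2 mutants its ratio was 0.31, 0.26, 0.44 and 0.43 with Antp73b in channel 1, and 0.000, 0.06, -0.07 and -0.01 with ap56f in channel 1. The orientations did not overlap. The fitted difference in Antp73b against ap56f was 0.21 (SE 0.039, limma adjusted p = 5.5e-05) and the smallest standard error of the 65 genes. Against OregonR it was 0.23, 0.37, 0.24 and 0.48 with Antp73b in channel 1 and 0.13, 0.000, -0.06 and -0.06 with Antp73b in channel 2, which gave a difference of 0.13 (limma adjusted p = 0.0085). For ap56f with OregonR it was 0.14, 0.07, 0.000 and 0.19 with ap56f in channel 1 and 0.32, 0.20, 0.37 and 0.37 with ap56f in channel 2. These orientations also did not overlap, but the fitted difference was -0.08 and not called (limma adjusted p = 0.18). With the 8 direct arrays alone the adjusted p between the mutants was 0.057. The call of ND-51 in Antp73b against OregonR was lost in 6 of 16 other settings, with an adjusted p of up to 0.33.

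ND-B16.6, the orthologue of the membrane-arm subunit NDUFA13, is encoded on the X. With Antp73b in channel 1 and OregonR in channel 2 its ratio was 0.31, 0.53, 0.37 and 0.72, and with the colours exchanged -0.20, -0.07, -0.19 and 0.06. The orientations did not overlap, and the difference was 0.23 (limma adjusted p = 0.00035). It was 0.10 in ap56f against OregonR and 0.13 in Antp73b against ap56f, where the limma adjusted p was 0.061. Leaving out array 40, 58, 72 or 73 brought the last of these below the threshold, with a difference of 0.13 to 0.16 and an adjusted p of 0.022 to 0.044. It was also called with place in the group as a block (0.13, adjusted p = 0.044) and without centring of the arrays (0.15, adjusted p = 0.032), but not with parity of the array number as a block (adjusted p = 0.055).

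ND-MNLL, the orthologue of NDUFB1, was called on the plus side in both comparisons with OregonR. Its ratio was 0.03, 0.52, -0.19 and 0.43 with Antp73b in channel 1 and -0.25, 0.000, -0.48 and 0.03 with Antp73b in channel 2, where the ranges overlapped. For ap56f it was 0.32, 0.18, 0.58 and 0.60 with ap56f in channel 1 and -0.05, 0.14, -0.16 and -0.06 with ap56f in channel 2, without overlap. The differences were 0.22 (limma adjusted p = 0.0059) and 0.20 (limma adjusted p = 0.021). The gene has 2 array elements, and the 1 with enough values gave 0.15 (limma adjusted p = 0.08) and 0.25 (limma adjusted p = 0.0051) on its own. In ap56f against OregonR the call was lost without array 68 or 69 (0.17 each, adjusted p 0.055 and 0.065).

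ND-B14, the orthologue of NDUFA6, had the largest plus difference of any of the 65 genes in ap56f against OregonR. Its ratio was 0.27, 0.49, 0.87 and 0.77 with ap56f in channel 1 and 0.000, 0.14, -0.13 and 0.14 with ap56f in channel 2, and the orientations did not overlap. The difference was 0.29 (SE 0.082, limma adjusted p = 0.011), fitted without the 2 arrays that had no value for it. In Antp73b against OregonR the ratio was -0.44, 0.49, 0.45 and 0.43 with Antp73b in channel 1 and 0.13, -0.17, 0.13 and -0.77 with Antp73b in channel 2. The first of these arrays, array 62, lay far below the other 3. With Antp73b in channel 2 the last array, at -0.77, lay far below the others of its orientation. The difference there was 0.19 (limma adjusted p = 0.085). It was 0.26 without array 62 (adjusted p = 0.013) and 0.22 without array 73 (adjusted p = 0.037). Over all fits without 1 array it ran from 0.13 to 0.26, with an adjusted p of up to 0.29. On the first 2 arrays of each group it was 0.01, and on the last 2 it was 0.38.

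ND-42, the orthologue of NDUFA10, was called only in ap56f against OregonR. Its ratio was 0.14, 0.38, 0.27 and 0.05 with ap56f in channel 1 and 0.31, 0.07, -0.47 and -0.22 with ap56f in channel 2, so the orientations overlapped. The difference of 0.15 (limma adjusted p = 0.035) was lost in 9 of 16 other settings and without array 56, 57, 63, 67 or 68 (0.11 to 0.15, adjusted p 0.052 to 0.12).

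The core subunits ND-75 and ND-20, which carry iron-sulfur clusters, were not called in the model as reported. ND-75 stood at 0.04 in Antp73b against OregonR, at -0.09 in ap56f against OregonR and at 0.14 in Antp73b against ap56f (limma adjusted p = 0.075). The last of these values was called after quantile normalization and without array 50, 54, 56 or 73. ND-20 lay between -0.02 and 0.02 in all 3. ND-39, an accessory subunit that binds NADPH, lay between -0.06 and 0.10, and the acyl carrier protein ND-ACP between -0.02 and 0.10. No gene of complex I other than ND-B8 exceeded 0.29 in size.

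Complex II is succinate dehydrogenase, which also works in the citric acid cycle. Its flavoprotein and iron-sulfur subunits, SdhA and SdhB, are held in the membrane by the anchors SdhC and SdhD. The array genes were SdhB, SdhC, SdhD, the assembly factor gene Sdhaf3 and the duplicates SdhAL, SdhBL and SdhCL. SdhC was called on the plus side in Antp73b against both other strains, and SdhCL in Antp73b against ap56f. These made 14.3% of the 7 genes in Antp73b against OregonR and 28.6% in Antp73b against ap56f, where 23.3% and 15.7% of all features were called, and 0 genes were called in ap56f against OregonR.

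The ratio of SdhC was 0.42, 0.68, 0.26 and 0.48 on arrays with Antp73b in channel 1 and ap56f in channel 2, and -0.06, -0.07, -0.13 and -0.07 with the colours exchanged. All 8 arrays gave the same side, though with ap56f in channel 1 each value was smaller than the smallest step of the deposited values (0.1375). The difference was 0.24 (SE 0.043, limma adjusted p = 3.2e-05). With OregonR the ratio was 0.31, 0.26, -0.19 and 0.43 with Antp73b in channel 1 and -0.19, 0.000, -0.13 and -0.06 with Antp73b in channel 2. Here 1 array of Antp73b in channel 1 lay at the low end of the other orientation, and the difference was 0.18 (limma adjusted p = 0.0013). The ap56f pair gave 0.07, 0.13, 0.07 and 0.25 with ap56f in channel 1 and 0.20, 0.32, 0.06 and 0.19 with ap56f in channel 2, with a difference of -0.06 that was not called (limma adjusted p = 0.36).

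SdhCL, a duplicate of SdhC on the same arm, 3R, had ratios of 0.81, 0.87, 0.53 and 0.53 with Antp73b in channel 1 and ap56f in channel 2. With the colours exchanged they were 0.33, 0.13, 0.31 and -0.66. The orientations did not overlap, and the difference was 0.31 (SE 0.064, limma adjusted p = 0.00031). On arrays of 1 strain SdhCL lay between 0.19 and 0.76, an offset above 0 whatever the strain. In Antp73b against OregonR it stood at 0.13 (limma adjusted p = 0.14). Its value in ap56f against OregonR was -0.18, close to the threshold (limma adjusted p = 0.052), and was called without array 44, 53, 54, 55, 60, 61, 65, 66, 70 or 72 (-0.20 to -0.18, adjusted p 0.033 to 0.049). It was called as well with place in the group as a block or parity of the array number as a block (-0.18 and adjusted p = 0.048 in each), without centring (-0.19, adjusted p = 0.035) and among features with a value on all 36 arrays. No source used here gives the probe sequences, and near-identical duplicates may share signal.

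SdhB had ratios of 0.32, 0.48, 0.63 and 0.54 with Antp73b in channel 1 and OregonR in channel 2, and 0.13, 0.26, 0.43 and 0.05 with the colours exchanged. Its difference was 0.13 in Antp73b against OregonR (limma adjusted p = 0.073), 0.002 in ap56f against OregonR and 0.12 in Antp73b against ap56f (limma adjusted p = 0.1). Without array 73 the values with Antp73b were called, at 0.14 and 0.16 (adjusted p = 0.036 each), and without array 52 the first of them was called at 0.15 (adjusted p = 0.031). With place in the group as a block the difference of 0.13 in Antp73b against OregonR was called (adjusted p = 0.041), and with parity as a block it was not (adjusted p = 0.075). SdhD had ratios of 0.01, 0.20, 0.32 and 0.32 with Antp73b in channel 1 and OregonR in channel 2, and -0.24, 0.37, 0.11 and -0.17 with the colours exchanged. These overlapped, and SdhD differed by -0.04 to 0.02 over the 3 comparisons.

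For Sdhaf3, which helps assemble complex II, the same arrays gave 0.07, 0.07, -0.26 and 0.20 with Antp73b in channel 1 and 0.29, -0.26, 0.14 and -0.22 with Antp73b in channel 2. SdhAL gave 0.000, -0.06, 0.000 and -0.43 with Antp73b in channel 1 and 0.13, 0.07, 0.07 and -0.22 with Antp73b in channel 2. SdhBL gave -0.13, -0.03, -0.11 and -0.06 with Antp73b in channel 1 and -0.13, -0.19, -0.09 and -0.18 with Antp73b in channel 2. The orientations overlapped in all 3 genes. None of the 3 was called in any comparison, and their differences lay between -0.07 and 0.02.

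Complex III was represented by UQCR-Q, a small subunit, and UQCR-14L, a duplicate-type gene. UQCR-Q had ratios of 0.13, 0.26, 0.26 and 0.14 with Antp73b in channel 1 and OregonR in channel 2, and -0.47, 0.14, -0.07 and -0.07 with the colours exchanged. The ranges just touched, and array 50, at -0.47, lay well below the other arrays. The difference was 0.12 (SE 0.043, limma adjusted p = 0.048), just inside the threshold. The call was lost in 10 of 16 other settings and without any of 20 arrays (39, 41, 43, 44, 46, 47, 48, 50, 52, 53, 55, 56, 58, 61, 63, 64, 66, 67, 71 and 72), with an adjusted p of 0.051 to 0.21, and without array 50 the difference was 0.07. In the other comparisons UQCR-Q stood at 0.07 in ap56f against OregonR and 0.05 in Antp73b against ap56f. UQCR-14L had ratios of -0.36, 0.26, 0.24 and -0.43 with Antp73b in channel 1 and -0.13, -0.19, 0.000 and -0.36 with Antp73b in channel 2. It differed by 0.08, 0.02 and 0.06 in Antp73b against OregonR, ap56f against OregonR and Antp73b against ap56f, and was not called.

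Complex IV is cytochrome c oxidase, whose catalytic subunits are mitochondrially encoded. The genes here code for the nuclear subunits around that core. COX7A and COX4L were called on the minus side in Antp73b against both other strains, and no gene of complex IV was called in ap56f against OregonR. The share was 16.7% of the 12 genes against both strains, where 23.3% and 15.7% of all features were called.

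COX7A had ratios of -0.06, -0.003, -0.03 and -0.09 with Antp73b in channel 1 and OregonR in channel 2, and 0.64, 0.32, 0.18 and 0.43 with the colours exchanged. All 8 arrays gave the same side, though with Antp73b in channel 1 each value was smaller than the smallest step of the deposited values (0.1375). With ap56f it had -0.07, 0.07, 0.03 and 0.29 with Antp73b in channel 1 and 0.27, 0.37, 0.45 and 0.67 with ap56f in channel 1, where 1 array of the first orientation just overlapped with the second. Of these 8 arrays, 5 gave the side of the fitted difference. The differences were -0.22 in Antp73b against OregonR (SE 0.049, limma adjusted p = 5e-04) and -0.18 in Antp73b against ap56f (limma adjusted p = 0.0076). Both of its array elements were called in both comparisons, at -0.26 and -0.18 against OregonR and at -0.19 and -0.17 against ap56f. ap56f against OregonR gave -0.04 (limma adjusted p = 0.61).

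COX4L, a duplicate of COX4, had ratios of -0.11, -0.20, -0.52 and 0.14 with Antp73b in channel 1 and ap56f in channel 2, and 0.39, 0.25, 0.68 and 0.26 with the colours exchanged. The orientations did not overlap, and the difference was -0.27 (SE 0.066, limma adjusted p = 0.0026). With OregonR it had 0.05, -0.19, 0.12 and -0.47 with Antp73b in channel 1 and 0.55, 0.19, 0.000 and 0.12 with Antp73b in channel 2, which overlapped. That difference was -0.18 (limma adjusted p = 0.035), and the call was lost without array 50, 54, 60, 63, 65, 69 or 72 (-0.17 to -0.14, adjusted p 0.052 to 0.12). COX5A, COX5B, COX5BL, COX6AL2, COX6B, COX7B, COX7C and COX8 were not called in any comparison of the model as reported. Their differences ran from -0.08 to 0.04 in Antp73b against OregonR, from -0.09 to 0.08 in ap56f against OregonR and from -0.14 to 0.13 in Antp73b against ap56f.

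Complex V consists of a catalytic head, a rotor with a central stalk and a ring of c subunits, and a peripheral stalk that holds the head still. The peripheral stalk genes ATPsynCF6 and ATPsynB and the membrane subunit gene ATPsynG were called, each in 1 or 2 comparisons. That gave 14.3% of the 14 genes in Antp73b against OregonR, 7.14% in ap56f against OregonR and 7.14% in Antp73b against ap56f, against 23.3%, 15.9% and 15.7% of all features. Coupling factor ATPsynCF6 had ratios of 0.20, 0.27, -0.38 and 0.22 with Antp73b in channel 1 and OregonR in channel 2, and 0.24, 0.32, 0.77 and 0.54 with the colours exchanged. With ap56f it had 0.20, 0.20, -0.13 and -0.26 with Antp73b in channel 1 and 0.39, 0.38, 0.67 and 0.79 with ap56f in channel 1. The second pair of orientations did not overlap, and in the first the highest value with Antp73b in channel 1 lay above the lowest of the other. The differences were -0.22 in Antp73b against OregonR (SE 0.064, limma adjusted p = 0.0091) and -0.25 in Antp73b against ap56f (limma adjusted p = 0.0034). Over the 16 other settings they ran from -0.40 to -0.04 and from -0.43 to -0.08, with the call lost in 5 and 3 of them. On the first 2 arrays of each group they were -0.04 and -0.08 (limma adjusted p = 0.72 and 0.47). On the last 2 they were -0.40 and -0.43 (limma adjusted p = 0.005 and 0.0039).

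ATPsynB, the b subunit, had ratios of 0.000, 0.000, 0.07 and 0.000 with ap56f in channel 1 and OregonR in channel 2, and 0.38, 0.32, 0.05 and 0.53 with the colours exchanged. These overlapped on 1 array of each. The difference was -0.17 (limma adjusted p = 0.016), and leaving out array 57 brought it to -0.15 and to the threshold (adjusted p 0.05 after rounding down, not called). It stood at -0.09 in Antp73b against OregonR and at 0.08 in Antp73b against ap56f. ATPsynG had ratios of 0.07, 0.48, 0.81 and 0.72 with Antp73b in channel 1 and OregonR in channel 2, and 0.25, 0.14, -0.11 and 0.26 with the colours exchanged, where the lowest array of the first overlapped with the second. The difference was 0.16 (limma adjusted p = 0.033), and the call was lost without array 52, 57, 63, 64 or 65 (0.12 to 0.15, adjusted p 0.051 to 0.13). Between the mutants ATPsynG stood at 0.14 and was not called, except without centring (0.15, adjusted p = 0.048).

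None of the other 11 genes with an ATPsyn symbol was called in the model as reported. ATPsynC, which codes for the ring subunit, stood at 0.07 in Antp73b against OregonR, 0.08 in ap56f against OregonR and -0.01 in Antp73b against ap56f. The rotor genes ATPsyngamma and ATPsyndelta stood at -0.07 and -0.17 in Antp73b against OregonR and at -0.08 and -0.15 in ap56f against OregonR. In Antp73b against OregonR ATPsyndelta was called without array 53 and on the first 2 arrays of each group. The stalk genes ATPsynO and ATPsynD lay between -0.07 and 0.07, and the membrane subunit genes ATPsynE and ATPsynF between -0.04 and 0.11.

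Among the 65 genes 17 were duplicates by their symbol and 48 were standard genes. The duplicates had 1 call (on the minus side) in Antp73b against OregonR, 0 in ap56f against OregonR and 2 (1 on each side) in Antp73b against ap56f, or 5.88%, 0% and 11.8% of them. The standard genes had 9, 5 and 4 calls in the same comparisons, or 18.8%, 10.4% and 8.33%. All of these shares were below the 23.3%, 15.9% and 15.7% called among all features. The 11 pairs of a duplicate with its standard gene held 7 pairs in which at least 1 was called. No matching share over all features is given for that count.

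SdhC and SdhCL were the 1 pair in which both genes were called in the same comparison, Antp73b against ap56f, at 0.24 and 0.31. In the other pairs the call belonged to 1 gene. COX4L stood at -0.27 in that comparison and COX4 at -0.11 (limma adjusted p = 0.21), with COX4 ratios of 0.000, -0.07, -0.35 and -0.21 with Antp73b in channel 1 and 0.000, 0.13, -0.42 and 0.06 with ap56f in channel 1. Without array 72, COX4 stood at -0.15 with an adjusted p that rounds up to 0.05, and was called. COX7A stood at -0.18 there and COX7AL at 0.12 (limma adjusted p = 0.1), with COX7AL ratios of 0.43, 0.32, 0.31 and 0.43 with Antp73b in channel 1 and 0.07, 0.19, 0.19 and 0.06 with ap56f in channel 1. The orientations of COX7AL did not overlap, and they differed on the side opposite to COX7A. COX7AL in ap56f against OregonR stood at -0.13 (limma adjusted p = 0.072), and was called without array 51 or 53 (-0.15 each, adjusted p 0.045 and 0.025) and without centring (-0.15, adjusted p = 0.028).

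ND-51 stood at 0.13 in Antp73b against OregonR, and its duplicates ND-51L1 and ND-51L2 at 0.05 and -0.11, neither called. ND-51L1 had ratios of 0.14, 0.37, -0.26 and -0.07 with Antp73b in channel 1 and -0.06, -0.42, -0.20 and 0.49 with Antp73b in channel 2. ND-51L2 had 0.000, -0.07, -0.63 and -0.14 with Antp73b in channel 1 and -0.26, 0.20, 0.13 and 0.000 with Antp73b in channel 2. Both overlapped between orientations. ATPsynCF6L stood at -0.08 where ATPsynCF6 stood at -0.22, with ratios of 0.01, 0.20, 0.63 and 0.38 with Antp73b in channel 1 and 0.44, 0.26, 0.54 and 0.54 with Antp73b in channel 2. ATPsynGL stood at 0.01 where ATPsynG stood at 0.16, with ratios of 0.14, -0.29, 0.000 and 0.000 with Antp73b in channel 1 and 0.01, -0.53, 0.06 and -0.21 with Antp73b in channel 2. The orientations overlapped in these as well. Whether a duplicate and its standard gene differed from each other was not tested.

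**Figure D3:**
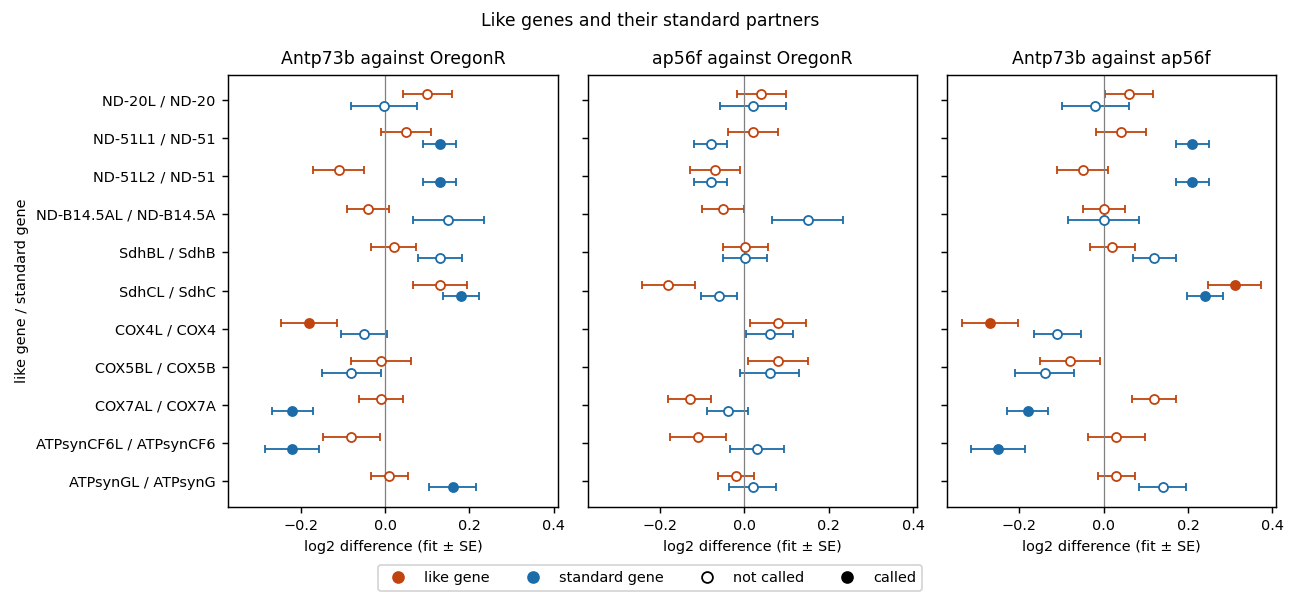
Fitted log2 difference ± SE (x axis) of each duplicate and of its standard gene, for 11 pairs (y axis) in the 3 comparisons. SdhC and SdhCL lie together at 0.24 and 0.31 in Antp73b against ap56f, while COX7A and COX7AL lie at -0.18 and 0.12.

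The ratios of these genes also depended on the channel. The dye term, which is the ratio shared by all arrays whatever the strains, had a median of 0.121 over the 65 genes against -0.003 over all features. It lay above 0 for 50 of the 65 genes and was called above 0 for 39 and below 0 for 6. In all, 69.2% of the genes had a called dye term, against 61.4% of all features, and 60% were called above 0 against 30.1% of all features. By complex the median dye term was 0.112 (I), 0.064 (II), 0.031 (III), 0.118 (IV) and 0.199 (V).

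On the 12 arrays of 1 strain the median ratio of the 65 genes was 0.000 to 0.200 (median 0.069), where all genes together lay between -0.028 and 0.000. A strain difference appears as a change between orientations around that offset, and so a gene such as COX7A shows ratios near 0 in one orientation and clearly above 0 in the other. Without the dye term in the model 5, 2 and 3 of the 65 genes (7.69%, 3.08% and 4.62%) were called in Antp73b against OregonR, ap56f against OregonR and Antp73b against ap56f. Calls over all features fell as well, to 2174 (16.4%), 1236 (9.3%) and 1359 (10.2%) without the dye term, against 3097, 2118 and 2086 with it. Direct and indirect estimates of the strain differences, compared around the triangle of strains, differed past the threshold for 0 of the 65 genes and for 0% of all features.

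**Figure D4:**
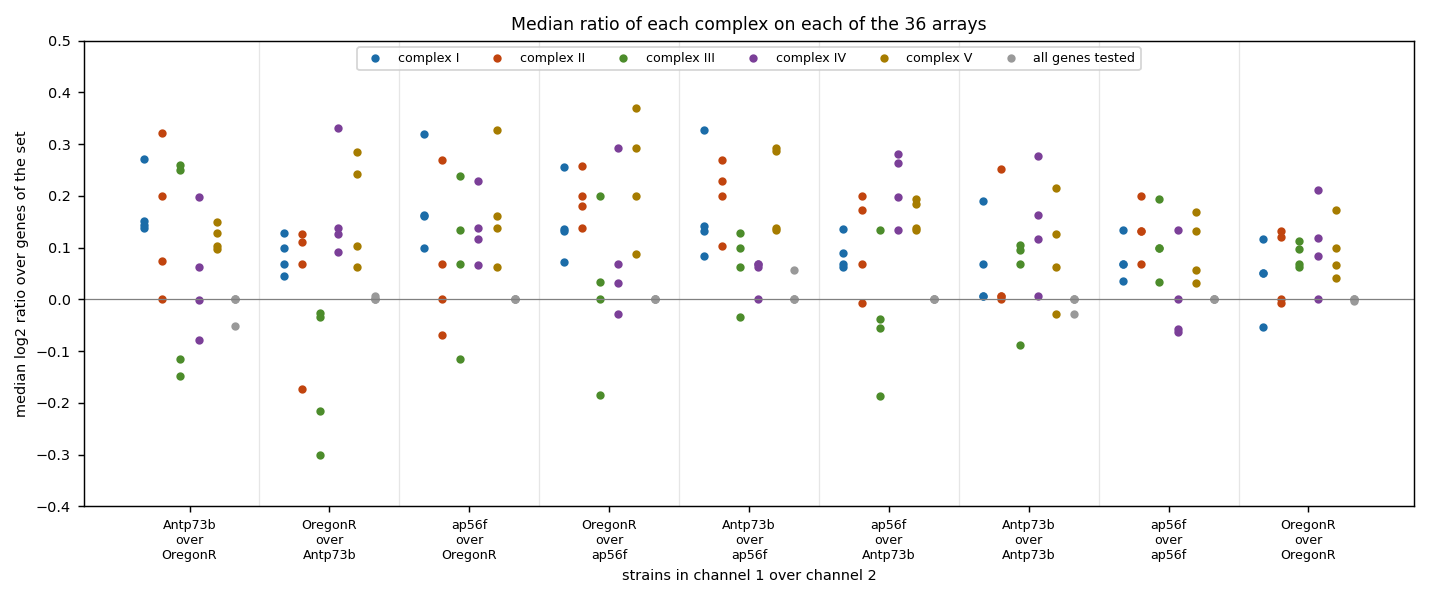
Median log2 ratio (y axis) of the genes of each complex on each of the 36 arrays, by the strains in channel 1 and channel 2 (x axis), with all genes tested in grey. Complexes I, IV and V lie mostly above 0 in both orientations and on arrays of 1 strain, at dye terms with medians of 0.112, 0.118 and 0.199.

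Other genes of the pathway were read from lists chosen by function. Counts in these lists stand beside 23.3% of all features called in Antp73b against OregonR (11.7% plus, 11.6% minus), 15.9% in ap56f against OregonR (8.45% plus, 7.48% minus) and 15.7% in Antp73b against ap56f (8.31% plus, 7.38% minus). Among 8 other subunit genes, named outside the symbol rule, ox of complex III was called on the plus side in Antp73b (0.21) and in ap56f (0.28) against OregonR, while blw, which codes for the alpha subunit of the ATP synthase head, was called at -0.24 in ap56f against OregonR. The share called was 12.5%, 25% and 0% in Antp73b against OregonR, ap56f against OregonR and Antp73b against ap56f. Of 10 genes for assembly of the complexes, 4 were called on the minus side in Antp73b against OregonR, among them Nubpl (-0.22), which supplies iron-sulfur clusters to complex I, Ccdc56 (-0.18), which serves complex IV, and Sirup (-0.21). Sirup, an assembly factor of complex II, stood at 0.27 in ap56f against OregonR and at -0.48 in Antp73b against ap56f (limma adjusted p = 1.8e-08), the largest difference in these lists of the pathway. It stood on the side opposite to SdhC and SdhCL there. Sirup was the 1 assembly gene called in ap56f against OregonR, and between the mutants it was called with Ccdc56 (-0.21), both on the minus side. The shares of the assembly list were 40%, 10% and 20% in the comparisons in that order.

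Among 17 genes of the citric acid cycle and pyruvate dehydrogenase, 2 plus and 2 minus calls were made in Antp73b against OregonR, 1 and 2 in ap56f against OregonR, and 2 and 2 in Antp73b against ap56f. These shares, 23.5%, 17.6% and 23.5%, were near those of all features in the comparisons with OregonR and above them between the mutants, untested. The kinase Pdk, which switches pyruvate dehydrogenase off, stood at 0.25 in Antp73b and 0.15 in ap56f against OregonR, and the phosphatase Pdp at -0.17 and -0.20. Ogdh, of the oxoglutarate dehydrogenase complex, stood at -0.29 in ap56f against OregonR and at 0.35 in Antp73b against ap56f. Idh stood at -0.13 in Antp73b against OregonR and at -0.21 in Antp73b against ap56f, and the aconitase mAcon1 was called between the mutants at 0.18. Of 12 carriers and porins, the phosphate carrier Mpcp2 was called on the minus side against OregonR, at -0.19 in Antp73b and -0.16 in ap56f, and none was called between the mutants. This was 8.33% of the list in each comparison with OregonR, below all features.

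Of 12 genes for mitochondrial gene expression and its regulators, 1 was called on the plus side in Antp73b against OregonR, Pink1 (0.25), and 2 on the minus side, the transcription termination factor gene mTTF (-0.18) and Ets97D (-0.20). The 1 gene called in ap56f against OregonR was mTerf3 (-0.15), and in Antp73b against ap56f mTTF (-0.14), so that 25%, 8.33% and 8.33% of the list were called. Glycolysis, which feeds pyruvate to the mitochondria, had 11 genes tested. Of these, 5 were called in ap56f against OregonR, all on the minus side, with Eno (-0.29), Tpi (-0.28) and Pgk (-0.25) first by p. In Antp73b against ap56f 6 were called, all on the plus side, with Gpdh1 (0.28), Pgi (0.22) and Pglym87 (0.19) first. Pglym87 is also on the list of testis markers. In Antp73b against OregonR Gpdh1 was called on the plus side (0.37), and Eno (-0.17) and Pfk (-0.11) on the minus side. The shares called were 27.3% in Antp73b against OregonR, 45.5% in ap56f against OregonR and 54.5% in Antp73b against ap56f. The list medians were -0.110 in Antp73b against OregonR, -0.094 in ap56f against OregonR and 0.124 in Antp73b against ap56f.

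Marker genes of tissues were read beside these lists, and some had larger differences than the genes of oxidative phosphorylation. Ovary markers were called on the minus side for 12 of 12 in Antp73b against OregonR, 11 of 12 in ap56f against OregonR and 10 of 12 in Antp73b against ap56f, with medians of -0.718, -0.486 and -0.337. Chorion gene Cp38 led by p in both comparisons with OregonR, at -1.17 and -0.80. The 16 flight muscle markers had 2 plus and 3 minus calls in Antp73b against OregonR, 1 and 1 in ap56f against OregonR, and 4 and 3 in Antp73b against ap56f, or 31.2%, 12.5% and 43.8%, against 23.3%, 15.9% and 15.7% of all features. The muscle gene Mf stood at 0.50 and the flight muscle actin Act88F at -0.33 in Antp73b against OregonR.

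Testis markers had 1 plus and 4 minus calls of 13 in Antp73b against OregonR, 0 and 3 in ap56f against OregonR, and 3 and 0 in Antp73b against ap56f, where the tubulin betaTub85D stood at 0.31. The testis shares were 38.5%, 23.1% and 23.1%. Pglym87 of the glycolysis list and Porin2 of the list of carriers and porins are on the testis list too, so these lists are not separate. Fat body markers had 4 and 1 of 7 in Antp73b against OregonR, 3 and 3 in ap56f against OregonR and 4 and 2 in Antp73b against ap56f. They were led by p by Adh (0.62), Fbp1 (0.56) and apolpp (0.38), with shares of 71.4%, 85.7% and 85.7%. The fat body markers went to both sides, from -0.29 to 0.62, from -0.20 to 0.56 and from -0.36 to 0.38 in these comparisons. Markers of the nervous system and eye had 3 and 1 of 7 in Antp73b against OregonR, 3 and 1 in ap56f against OregonR and 0 and 2 in Antp73b against ap56f, with the arrestin Arr2 at 0.34, 0.86 and -0.52 and shares of 57.1%, 57.1% and 28.6%. As the files hold ratios, levels of these markers were not compared between genes. The part of any of these tissues in the differences of the genes of oxidative phosphorylation was not tested.

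**Figure D5:**
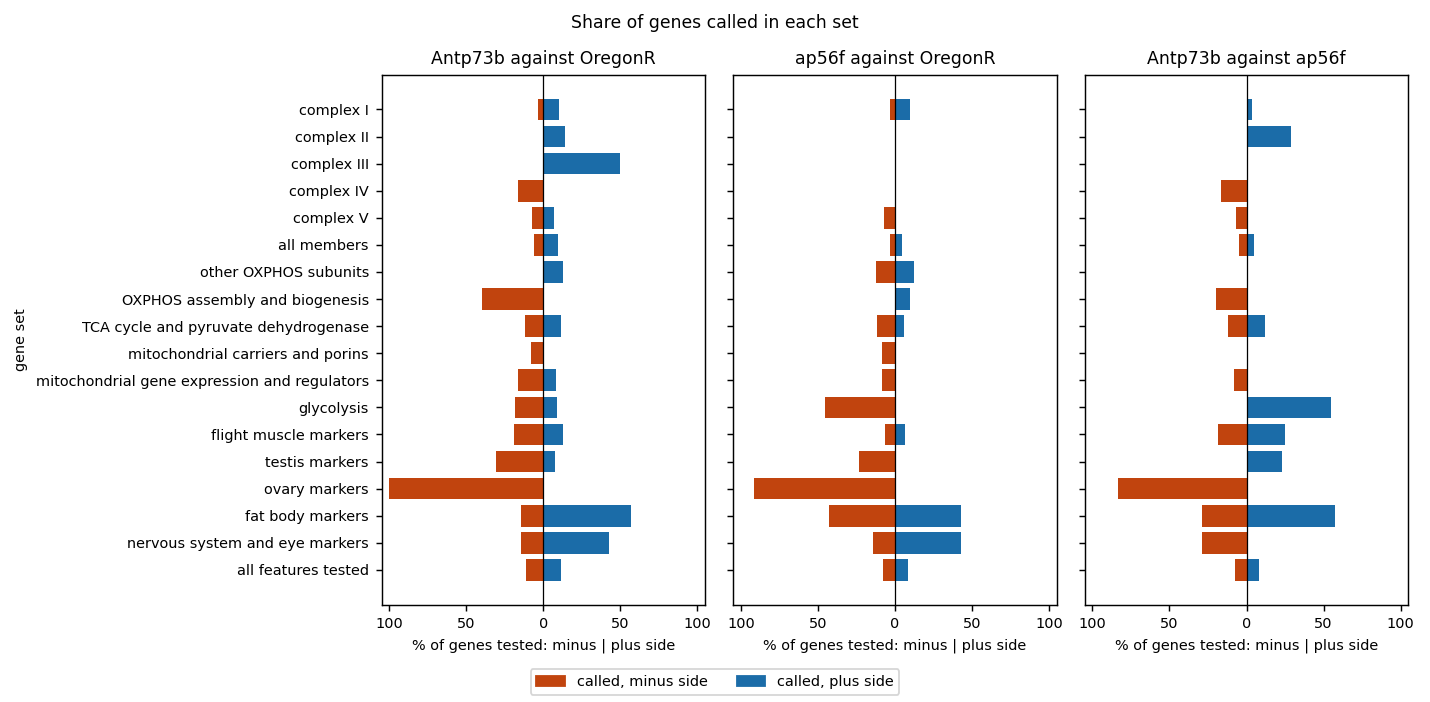
Share of the tested genes of each set (y axis) called on the minus side (left, red) and on the plus side (right, blue), in percent (x axis), in the 3 comparisons. Ovary markers reach 100%, 91.7% and 83.3% on the minus side, while the 65 genes of oxidative phosphorylation total 15.4%, 7.69% and 9.23% over both sides, below all features.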

How the data were processed

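Whole-fly RNA of 3 strains was compared on 36 two-colour arrays in 9 groups of 4. Per the labels' protocols, poly(A)-selected mRNA was copied into Cy3- or Cy5-labelled cDNA and scanned on a GenePix scanner; no source used here gives the background correction or normalization before deposit. The deposited values are a score for each spot, a signed fold ratio between channels, read as such from the values: 0 of them lay between -1 and 1, they had 1 decimal, and the smallest log2 step next to 0 was 0.1375, which limits small differences on single arrays. The table held 0 columns of other samples.

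Log2 ratios were the sign times the log2 of the size. Duplicate spots were averaged, arrays centred on their median, and elements averaged to 1 value per gene. Platform symbols were updated with RefSeq's genes of assembly Release 6. Features with a value on at least 2 of 4 arrays in each group were tested with limma 3.58.1 in R 4.3.3 (lmFit and eBayes, two-sided, a dye intercept and strain terms), adjusted by Benjamini-Hochberg over 13296 features at 0.05. Files were read with Python 3.11.15, pandas 2.3.3 and NumPy 2.4.6, and plots drawn with matplotlib 3.10.9.

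Single-array values were given for the 2 genes of each complex with the smallest p, all Sdh genes, called genes and duplicate pairs with a call. Of each list the up to 3 called genes with the smallest p in a comparison were named. Genes and lists were chosen with earlier results of these data known. Alternatives were other centring, quantile normalization, other filters, elements on their own, no dye term, fewer arrays, blocks and fits by place in the group and parity of the array number, and each array left out. In a test on simulated data for 13296 features, limma called 21 of 67 features changed by 0.15 in Antp73b against OregonR, 55 of 67 changed by 0.3, 66 of 66 changed by 0.6 and 5 unchanged ones; in Antp73b against ap56f it called 12 of 67, 57 of 67 and 66 of 66 at these sizes and 7 unchanged ones. No change was simulated in ap56f against OregonR, where 0 features were called. Far fewer features were changed in the simulation than were called in the data (23.3% and 15.7%), and the noise was drawn independently for each array. With so few changes the adjustment is stricter, so these shares do not give the recovery in the data. A subunit gene of complex V is not reported here.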

Additional observations from a re-analysis of the deposited data

Results flagged for a closer look

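On single arrays 7 values stood far from the other 3 of their group, 3 of 45 groups of complex medians and 4 of 124 groups of called genes, and chance gives about 1 in 20 groups. With Antp73b in channel 1 and OregonR in channel 2, the median ratio of complex I was 0.272 on array 65, against 0.138 to 0.152 on the others. On arrays of Antp73b alone the median of complex II was 0.253 on array 45, against 0.000 to 0.006. With Antp73b in channel 1 and ap56f in channel 2 the median of complex IV was 0.000 on array 61, against 0.063 to 0.069.

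ND-B14 stood at -0.44 on array 62 (Antp73b in channel 1, OregonR in channel 2), against 0.43 to 0.49 on the others of its group, and ATPsynCF6 stood at -0.38 on array 64 of the same group, against 0.20 to 0.27. ATPsynB stood at 0.07 on array 68 (ap56f in channel 1, OregonR in channel 2), where the other 3 were at 0.000, a gap within the rounding of the deposited values. ATPsynG stood at 0.49 on array 41, an array of OregonR alone, against 0.07 to 0.14.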

How the results depend on the processing

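Of the 21 called pairs of gene and comparison, the 2 of ND-B8 kept their call and side in all 16 other settings and in each of 36 fits without 1 array; the other 19 lost the call in at least 1 setting, and 0 changed side. ND-B8 ran from -0.80 to -0.61 in Antp73b against OregonR and from -0.88 to -0.60 in ap56f against OregonR. In Antp73b against OregonR, 10 genes were called, but 5 without a dye term, 3 on the 8 direct arrays, 3 on the last 2 arrays of each group, 2 on even-numbered and 4 on odd-numbered arrays. The first 2 arrays of each group called 11 (16.9%, against 18.3% of all features), of which 5 were shared with the 10. They gained ATPsynB, ATPsyndelta, COX7B, ND-19, ND-51L1 and ND-B17.2. In ap56f against OregonR, 5 genes were called, but 2 without a dye term, 2 on the 8 direct arrays, 2 on the first 2 and 2 on the last 2 arrays of each group, 1 on even-numbered and 2 on odd-numbered arrays. In Antp73b against ap56f, 6 were called, but 3 without a dye term and 4 on the 8 direct arrays. There 5 were called on the first 2 and 3 on the last 2 arrays of each group, 4 on even-numbered and 4 on odd-numbered arrays. The odd-numbered arrays gained ND-B22 in this comparison, and the last 2 arrays gained ND-B14 in Antp73b against OregonR. Other settings added calls. Without centring 9 (13.8%) were called in Antp73b against ap56f, against 15.3% of all features (ATPsynF, ATPsynG and ND-B16.6 gained). In ap56f against OregonR 7 (10.8%) were then called, against 16.7% of all features (COX7AL, ND-18 and SdhCL gained, ND-42 lost). Quantile normalization gained ND-75 in Antp73b against ap56f, with 7 genes (10.8%) against 14.9% of all features. It lost ATPsynG, COX4L and UQCR-Q in Antp73b against OregonR, with 7 genes (10.8%) against 19.9% of all features. In ap56f against OregonR it lost ND-42, with 4 genes (6.15%) against 13.4% of all features. With place in the group as a block 11, 6 and 7 genes were called in Antp73b against OregonR, ap56f against OregonR and Antp73b against ap56f, gaining SdhB, SdhCL and ND-B16.6. These were 16.9%, 9.23% and 10.8%, where 25.3%, 17.8% and 17.2% of all features were called. With parity as a block 10, 6 and 6 were called, gaining SdhCL. These were 15.4%, 9.23% and 9.23%, where 23.7%, 16.4% and 16% of all features were called. Neither block lost a call. The counts over all features in Antp73b against OregonR were 3097 (23.3%) in the model as reported, 2174 (16.4%, no dye term) and 1806 (13.6%, 8 direct arrays). They were 2448 (18.3%, first 2), 1492 (11.3%, last 2), 1729 (13.1%, even-numbered) and 1635 (12.5%, odd-numbered) on part of the arrays. For ap56f against OregonR they were 2118 (15.9%) in the model as reported, 1236 (9.3%, no dye term) and 744 (5.6%, 8 direct arrays). Part of the arrays gave 1334 (9.97%, first 2), 855 (6.47%, last 2), 808 (6.14%, even-numbered) and 1264 (9.69%, odd-numbered). For Antp73b against ap56f they were 2086 (15.7%) in the model as reported, 1359 (10.2%, no dye term) and 965 (7.26%, 8 direct arrays). Part of the arrays gave 1405 (10.5%, first 2), 889 (6.73%, last 2), 978 (7.43%, even-numbered) and 1108 (8.49%, odd-numbered). Fits on fewer arrays have less power by construction; the cause of the other changes was not tested. Leaving out 1 array in turn gave 7 to 13, 3 to 7 and 6 to 9 called genes in Antp73b against OregonR, ap56f against OregonR and Antp73b against ap56f, with 3 in the second without array 57 or 68, and 2831 to 3129, 1864 to 2157 and 1862 to 2136 features. Without centring the plus side held 40.5% of calls in ap56f against OregonR, against 53% with it, and 62.8% in Antp73b against ap56f, against 53%. Over the comparisons the median of all features lay between -0.022 and 0.013 without centring, and between -0.002 and 0.002 with it. Log2 ratios of last arrays were wider, with an SD of 0.333 to 0.401 on the last 2 between-strain arrays of a group and 0.248 to 0.343 on the first 2. Place and parity are terms for the run of array numbers and pair no single arrays. No paired analysis was possible because array numbers are unique and the groups share none.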
